A study of Mus musculus with 4 samples.

Results

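Chromatin accessibility was examined at 7 genes of cell cycle entry, Cdk4, Ccne1, Ccne2, Cdkn1b, E2f2, Mcm5 and Mki67, in mouse CD8+ T cells given a guide RNA against Prdm12 or the control guide sgNTC. The assay was ATAC-seq, in which Tn5 transposase inserts sequencing adapters into open DNA. A region was taken for a gene where it overlapped the gene's RefSeq span on build GRCm38 or lay within 10000 bases of it. Each gene had 1 such region, so the set holds 7 of the 3187 peaks in the deposited table. The genes were chosen from a cell cycle list by a readout of these same libraries, with earlier results of these data known. The value used for the choice was not stated, and was taken to be the presence of a listed peak with reads. The group difference may also have played a part in the choice. That they have peaks is therefore not a finding, and their differences between groups are given as a description.

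T cells leave quiescence through a fixed chain of steps. D-type cyclins with CDK4 or CDK6 start the phosphorylation of the retinoblastoma protein, which releases E2F factors, and cyclin E with CDK2 completes that step. E2F factors then switch on genes for DNA replication, such as those of the MCM helicase, while p27, the product of Cdkn1b, holds cyclin E and CDK2 in check in resting T cells. Mki67 encodes Ki-67, a protein of dividing cells that is used as a marker of proliferation.

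The 4 libraries came from spleen CD8+ T cells of OTI:Cas9 mice, whose T cells carry the OT-I transgenic receptor. Per the treatment protocol, both groups received Cas9 ribonucleoprotein with a synthetic guide by electroporation, whereas the series record describes the control cells as not edited; the groups are named here by guide. The sgNTC group is labelled Prdm12-wt and the sgPrdm12 group Prdm12-ko, with 2 libraries each, 1 of each group in batch 1 (replicate 1) and 1 in batch 2 (replicate 2). The labels do not give the animals' age. They do not say either that replicates are separate mice or cultures, and p-values here reflect the scatter of these libraries, which could be technical. The sgPrdm12 cells were an electroporated population and not a clone, and the table held 0 peaks within 10000 bases of Prdm12, so the edit could not be checked in these data.

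Depth was low. The libraries held from 20427 reads (sgPrdm12 replicate 2) to 58068 reads (sgNTC replicate 2) in all listed peaks, and the median peak held 5 to 15 reads. Each batch 2 ratio below thus sets the library with the fewest reads in peaks against the library with the most. Reads are given below both as raw counts and per 10000 reads after scaling by edgeR's TMM factors over the 1125 peaks that passed its count filter. Values scaled in this way cannot show a difference in accessibility shared by all peaks. Of 20 marker genes of T cells and CD8 T cells, 1 had a peak within 10000 bases (Cd3g, whose peak lay nearer to Ube4a), and Cd8a, Cd8b1 and Cd3e had none. Of 29 markers of CD4 T, B, myeloid, NK and erythroid cells, 4 had one (Zbtb7b, Cd68, Cebpb and Tfrc). The peaks near Cd68 lay nearer to Mpdu1 and Eif4a1. No peak of any marker lay in the marker's own promoter window. The identity of the cells was therefore not visible in this table. In bulk material, a change in how many cells have a region open cannot be told apart from a change in how open it is in each cell.

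The sequences around the annotated transcription starts show what the peaks cover. RefSeq promoter windows of GRCm38.p6, from 250 bases before to 50 bases after a start, were present for 6 of the 7 genes and for Lockd, a long noncoding RNA gene next to Cdkn1b; Ccne2 had no entry. Both the Cdk4 and the Mcm5 window lay wholly inside a peak. The peak of Cdkn1b covered 294 bases of the Lockd window, while the peaks of Mki67 and Ccne1 covered 51 and 35 bases of their own windows. The window of the first of 2 annotated E2f2 starts is shown as a start with no peak, from the gene whose groups differed most. Capitals mark motifs found on either strand: the E2F-type sites TTTCCCGC, TTTGGCGC, TTTCGCGC and TTCCCGCC, the SP site GGGCGG, the CCAAT box, the cell cycle homology region TTTGAA of genes active late in the cycle, and the E-box CACGTG, which Myc and related factors bind. The E2F-type spellings can share letters with each other, and so can neighbouring SP sites. The E-box was added to the search after the sequences had been read.
Cdk4 (chr10:127063285-127063584, plus strand): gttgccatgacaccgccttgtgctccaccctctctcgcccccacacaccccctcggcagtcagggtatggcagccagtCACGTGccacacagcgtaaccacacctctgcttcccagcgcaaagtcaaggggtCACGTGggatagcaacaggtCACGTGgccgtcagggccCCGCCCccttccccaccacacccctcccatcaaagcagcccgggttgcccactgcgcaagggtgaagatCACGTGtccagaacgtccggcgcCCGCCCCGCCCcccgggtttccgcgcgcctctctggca
Mcm5 (chr8:75109259-75109558, plus strand): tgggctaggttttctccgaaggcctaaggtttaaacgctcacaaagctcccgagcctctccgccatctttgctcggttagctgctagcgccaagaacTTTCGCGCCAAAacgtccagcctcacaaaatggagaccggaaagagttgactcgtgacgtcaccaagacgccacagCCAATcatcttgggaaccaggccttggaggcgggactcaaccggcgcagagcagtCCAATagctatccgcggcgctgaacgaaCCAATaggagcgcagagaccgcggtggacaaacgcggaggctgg
Lockd (chr6:134928842-134929141, plus strand): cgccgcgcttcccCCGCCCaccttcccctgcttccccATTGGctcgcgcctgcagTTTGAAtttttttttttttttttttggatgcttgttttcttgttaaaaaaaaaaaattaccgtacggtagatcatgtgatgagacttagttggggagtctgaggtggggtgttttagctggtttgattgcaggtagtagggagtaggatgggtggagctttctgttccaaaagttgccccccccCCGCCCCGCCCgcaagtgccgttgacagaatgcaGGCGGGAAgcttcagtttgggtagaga
Mki67 (chr7:135716330-135716629, minus strand): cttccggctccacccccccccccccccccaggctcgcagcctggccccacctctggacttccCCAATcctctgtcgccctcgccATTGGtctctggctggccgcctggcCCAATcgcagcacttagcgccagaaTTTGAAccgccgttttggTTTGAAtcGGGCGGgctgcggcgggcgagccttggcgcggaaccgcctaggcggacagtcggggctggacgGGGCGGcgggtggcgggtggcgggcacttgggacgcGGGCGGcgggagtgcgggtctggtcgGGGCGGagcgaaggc
Ccne1 (chr7:38107441-38107740, minus strand): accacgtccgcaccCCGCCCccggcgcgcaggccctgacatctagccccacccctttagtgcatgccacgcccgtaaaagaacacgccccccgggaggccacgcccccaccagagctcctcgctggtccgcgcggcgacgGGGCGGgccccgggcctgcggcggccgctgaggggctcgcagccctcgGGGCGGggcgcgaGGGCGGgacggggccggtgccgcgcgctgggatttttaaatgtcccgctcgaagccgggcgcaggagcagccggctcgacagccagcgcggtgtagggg
E2f2 (chr4:136172024-136172323, plus strand): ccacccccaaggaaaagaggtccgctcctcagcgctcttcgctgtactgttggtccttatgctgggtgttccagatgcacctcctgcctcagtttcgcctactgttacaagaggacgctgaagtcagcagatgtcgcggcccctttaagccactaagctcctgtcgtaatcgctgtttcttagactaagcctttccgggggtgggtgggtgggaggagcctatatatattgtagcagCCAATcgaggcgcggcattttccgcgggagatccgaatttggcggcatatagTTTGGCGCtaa

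The motifs differed from gene to gene. The Mcm5 window held 2 E2F-type sites that share letters, TTTCGCGC beginning 153 bases before the start and the reverse of TTTGGCGC beginning 149 bases before it, together with 3 CCAAT boxes. An E2F-type site was present in 3.49% of the 32851 promoter windows of the table and in 10.8% of the 2367 windows that a peak overlapped. The Cdk4 window held 4 E-boxes, beginning 172, 118, 98 and 11 bases before the start, and 3 SP sites, but none of the E2F-type spellings searched. An E-box was present in 7.15% of all windows and in 12.2% of those with a peak.

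The Mki67 window held 2 copies of TTTGAA, beginning 116 and 98 bases before the start, with 3 CCAAT boxes upstream of them and 4 SP sites. TTTGAA was present in 17.9% of all windows and in 10.98% of those with a peak, CCAAT in 37.4% and 47.1%, and GGGCGG in 35.7% and 76.6%. Both TTTGAA copies lay outside the peak, which began at the start and ran into the gene. The Ccne1 window held 4 SP sites, of which 1 lay inside its peak, and the Lockd window held 3 SP sites and 1 E2F-type site, all inside the peak. The window of the first E2f2 start held 1 E2F-type site, beginning 39 bases after the start, and that of the second start held none, with 3 CCAAT boxes, 1 SP site and 1 TTTGAA; no peak overlapped either. A match of letters is not a bound site, and none of these counts was tested.

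The peaks differed in their position at the genes. The peaks of Cdk4 (chr10:127063185-127063771) and Mcm5 (chr8:75109217-75109757) straddled the start, from 350 bases before to 236 after it and from 292 before to 248 after it. The peak of Mki67 (chr7:135716020-135716380) lay from the start to 359 bases inside the gene, and that of Ccne1 (chr7:38107706-38108025) lay 216 to 535 bases before the start, outside the gene span. The peak of Ccne2 (chr4:11191321-11191660) began 888 bases inside the span. It lay 91 bases from the upper coordinate of the span of a noncoding gene, A630034I12Rik. Whether transcription of A630034I12Rik starts or ends at that coordinate was not assigned. Exons and introns were not assigned, because the gene table gives spans only.

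The E2f2 and Cdkn1b peaks were away from those genes' annotated starts. The E2f2 peak (chr4:136177569-136178032) lay inside the gene, 5295 to 5758 bases after the first annotated start and 2750 to 3213 bases before the second. The Cdkn1b peak (chr6:134928548-134929135) lay 3023 bases beyond the end of the gene span and straddled the start of Lockd, from 544 bases before to 43 after it. The Lockd promoter has been described in mouse erythroid cells as an enhancer of Cdkn1b, which is background and was not examined here. With the distance limit at 1000 bases 6 peaks are found, without that of Cdkn1b, and 5 overlap a span. The farthest peak taken was that of Cdkn1b, and the nearest peak left out lay 12502 bases from Ccne1 (chr7:38084998-38085482), with 7 and 21 reads under sgNTC and 17 and 4 under sgPrdm12.

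**Figure D1:**
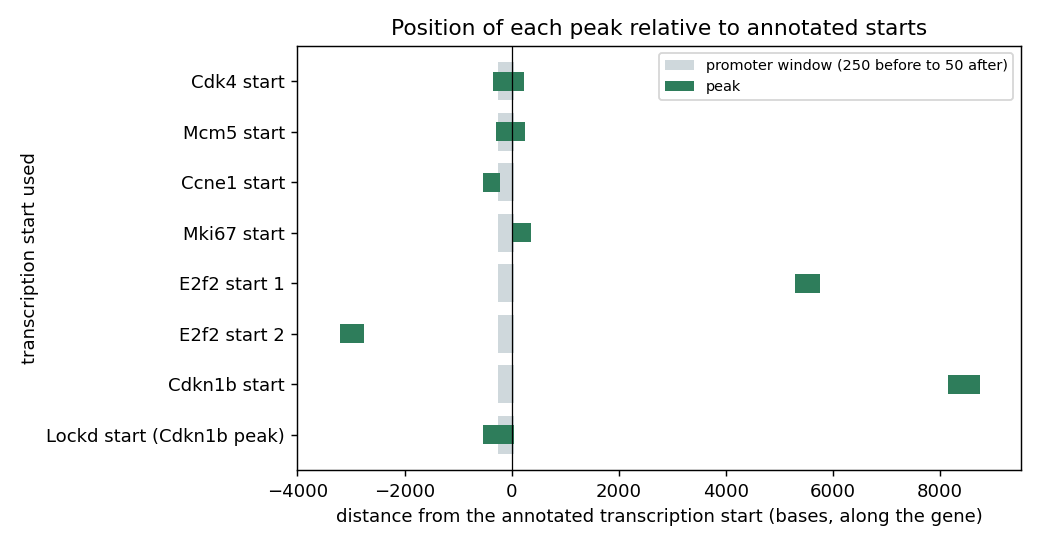
Position of the member peaks (green bars) in bases from each annotated transcription start along the gene, with the promoter window in grey. The peaks of Cdk4 and Mcm5 straddle their starts, that of Mki67 begins at its start, that of Ccne1 lies 216 to 535 bases before it, and those of E2f2 and Cdkn1b lie 2750 bases or more from their own starts; Ccne2 has no start in the table and is not drawn.

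The peaks were of ordinary height for this table. Averaged over the 4 libraries and per 1000 bases of peak, the Cdk4 peak had the highest level, 13.1 reads per 10000, and ranked 782nd of 3187 peaks. The Mcm5 peak followed with 12.3, then E2f2 with 10.4, Cdkn1b with 10.3, Ccne2 with 9.08, Ccne1 with 8.23 and Mki67 with 6.91, which ranked 2139th. The median was 9.51 over all peaks and 13.8 over the 1125 tested peaks. The 4 tallest peaks, those of Cdk4, Mcm5, Cdkn1b and E2f2, passed the count filter with 74, 60, 57 and 47 reads in all, and those of Ccne1, Ccne2 and Mki67, with 26, 25 and 23 reads, did not.

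None of the 4 tested peaks reached the threshold for sgPrdm12 against sgNTC cells in edgeR's quasi-likelihood test. Of all 1125 tested peaks, 0 passed an adjusted p of 0.05 (Benjamini-Hochberg; 0.0% called), and 57 (5.07%) had an unadjusted p under 0.05, none of them among the 4. DESeq2's Wald test on 3186 peaks also passed 0 and gave 28 at an unadjusted p under 0.05. With 2 libraries against 2, an exact two-sided permutation test of a single value cannot go below p = 0.333. The log2 fold changes of the 4 ran from -1.18 at E2f2 to 0.22 at Cdk4, with 2 above and 2 below 0 and a median of 0.05, against 0.02 over all tested peaks.

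Cdk4, the kinase that with D-type cyclins starts G1 progression, had raw counts of 13 (replicate 1) and 32 (replicate 2) under sgNTC, and of 25 (replicate 1) and 4 (replicate 2) under sgPrdm12; counts below follow the same order. Per 10000 reads the values were 6.69 and 8.06 in sgNTC and 12.7 and 3.20 in sgPrdm12. The 2 sgPrdm12 libraries were thus the highest and the lowest of the 4, and the groups overlapped. The group means were 7.37 ± 0.97 and 7.97 ± 6.74 (SD, n = 2), and the log2 fold change was 0.22 ± 0.44 (SE; edgeR adjusted p = 1.00). The 95% interval of the fold change ran from 0.62 to 2.19.

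The Cdk4 ratio went in opposite directions in the batches. The scaled ratio of sgPrdm12 over sgNTC was 1.90 in batch 1 (95% counting interval 0.94 to 4.05) and 0.40 in batch 2 (0.10 to 1.12). Within the sgPrdm12 group, replicate 2 over replicate 1 was 0.25 (0.064 to 0.73), while within sgNTC it was 1.21 (0.62 to 2.50). Without sgPrdm12 replicate 1 the log2 fold change turned to -1.21 ± 0.66, and without sgPrdm12 replicate 2 it was 0.72 ± 0.44. The direction at Cdk4 thus rested on which sgPrdm12 library was counted. These intervals are exact Clopper-Pearson intervals on the reads of 2 libraries and cover counting error only, as do all ratio intervals below.

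The cyclin E genes, whose products activate CDK2 at the start of S phase, had few reads. Ccne1 held 4 and 14 reads in sgNTC and 5 and 3 in sgPrdm12, or 2.06 and 3.53 against 2.55 and 2.40 per 10000. The sgPrdm12 libraries lay between the 2 sgNTC libraries, and the ratio was 1.24 in batch 1 (0.27 to 6.24) and 0.68 in batch 2 (0.13 to 2.44). Ccne2 held 6 and 5 reads in sgNTC and 11 and 3 in sgPrdm12, or 3.09 and 1.26 against 5.60 and 2.40 per 10000. Its ratio was above 1 in both batches, 1.82 (0.62 to 5.98) and 1.91 (0.30 to 9.79), but the groups overlapped, since batch 1 was higher than batch 2 in both. The group means were 2.17 ± 1.29 and 4.00 ± 2.27 (SD, n = 2). Ratios of the size seen at both genes lay within counting error.

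Cdkn1b, which encodes the CDK inhibitor p27, had a peak whose group means lay close together. Its counts were 11 and 26 under sgNTC and 14 and 6 under sgPrdm12, or 5.66 and 6.55 against 7.13 and 4.80 per 10000. The sgNTC libraries lay between the 2 sgPrdm12 libraries. The means were 6.10 ± 0.63 and 5.96 ± 1.65 (SD, n = 2), the log2 fold change was -0.0078 ± 0.41 (edgeR adjusted p = 1.00), and the 95% interval of the fold change ran from 0.55 to 1.79. The ratio was 1.26 in batch 1 (0.53 to 3.07) and 0.73 in batch 2 (0.25 to 1.82). Since this region straddles the start of Lockd, its reads cannot be assigned to Cdkn1b alone.

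E2f2, an activating E2F factor, was the only one of the 7 whose groups did not overlap. Its peak held 14 and 24 reads in sgNTC and 4 and 5 in sgPrdm12, or 7.20 and 6.04 against 2.04 and 4.00 per 10000. Both sgPrdm12 libraries were below both sgNTC libraries, as was the case at 202 of the 1125 tested peaks (18.0%), with sgPrdm12 above at another 184 (16.4%). The means were 6.62 ± 0.82 and 3.02 ± 1.39 (SD, n = 2). The log2 fold change was -1.18 ± 0.62 (SE; unadjusted p = 0.065, edgeR adjusted p = 0.93), and the 95% interval of the fold change, 0.18 to 1.06, included no change.

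The E2f2 ratio was below 1 in each batch, 0.28 in batch 1 (0.068 to 0.90) and 0.66 in batch 2 (0.20 to 1.77). The interval did not reach 1 in batch 1 and spanned it in batch 2, and the difference between the batches was not tested. By size of the unadjusted p, E2f2 ranked 78th of the 1125 tested peaks and 37th of those with a negative log2 fold change. Without sgPrdm12 replicate 2 the log2 fold change was -1.67 ± 0.67 (unadjusted p = 0.012, edgeR adjusted p = 0.68), and without sgPrdm12 replicate 1 it was -0.66 ± 0.65. In these fits 1 library stands for sgPrdm12 and is assumed to vary as the sgNTC libraries do. Without the count filter the unadjusted p was 0.037, with an edgeR adjusted p of 0.89. Over 9 alternatives the adjusted p ran from 0.68 to 1.00.

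Mcm5, a subunit of the MCM replicative helicase, had the ratios nearest to 1 among the 7. Its counts were 11 and 27 under sgNTC and 12 and 10 under sgPrdm12, or 5.66 and 6.80 against 6.11 and 8.00 per 10000. Batch 2 was higher than batch 1 in both groups, and the groups overlapped. The ratio was 1.08 in batch 1 (0.44 to 2.70) and 1.18 in batch 2 (0.51 to 2.51). The means were 6.23 ± 0.81 and 7.05 ± 1.33 (SD, n = 2), the log2 fold change was 0.10 ± 0.38 (edgeR adjusted p = 1.00), and the 95% interval of the fold change ran from 0.62 to 1.85.

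Mki67, the proliferation marker gene, had the fewest reads. Its counts were 5 and 8 under sgNTC and 9 and 1 under sgPrdm12, or 2.57 and 2.01 against 4.58 and 0.80 per 10000. As at Cdk4 and Cdkn1b, the 2 sgPrdm12 libraries were the highest and the lowest. The ratio was 1.78 in batch 1 (0.54 to 6.77) and 0.40 in batch 2, where the interval from 0.0089 to 2.96 rests on a single sgPrdm12 read. The means were 2.29 ± 0.39 and 2.69 ± 2.68 (SD, n = 2).

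**Figure D2:**
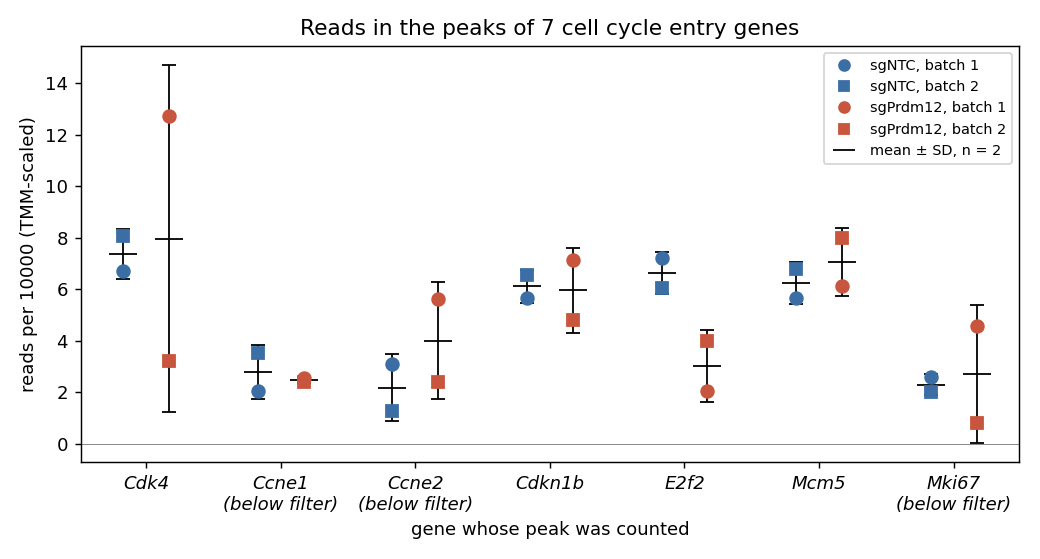
TMM-scaled reads per 10000 in the peak of each gene, with points for the 4 libraries (colour for the guide, shape for the batch) and black bars for the mean ± SD of 2 libraries. E2f2 is the only gene with both sgPrdm12 points (2.04 and 4.00) below both sgNTC points (7.20 and 6.04). At Cdk4, Cdkn1b and Mki67 the sgPrdm12 points are the highest and the lowest.

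Across the 7 peaks there was no common direction. The ratio was above 1 in both batches at 2 genes (Ccne2 and Mcm5), below 1 in both at 1 (E2f2) and opposite at 4 (Cdk4, Cdkn1b, Ccne1 and Mki67), each of these 4 being higher in batch 1. Among the 4 tested peaks the batches went in opposite directions at 2, where 568 of all 1125 tested peaks (50.5%) did so. Summed over the 7 peaks, the libraries held 64 and 136 reads in sgNTC and 80 and 32 in sgPrdm12, or 32.9 and 34.3 against 40.8 and 25.6 per 10000. The group means of 33.6 ± 0.94 and 33.2 ± 10.7 (SD, n = 2) lay closer together than the replicates within sgPrdm12, and the sgPrdm12 libraries were again the highest and the lowest. The shares of all tested peaks with a higher ratio in batch 1, or with sgPrdm12 libraries at both extremes, were not computed.

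**Figure D3:**
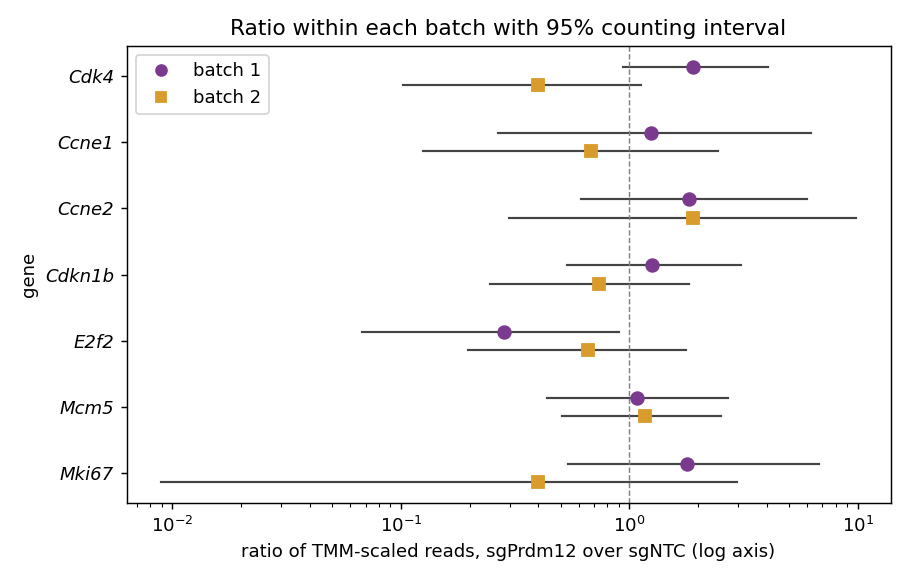
Ratio of TMM-scaled reads, sgPrdm12 over sgNTC, within batch 1 (circles) and batch 2 (squares) on a log axis, with 95% counting intervals from 1 library of each group. The E2f2 interval in batch 1 (0.068 to 0.90) is the only one of the 14 that does not reach 1. Between libraries of the same guide, the Cdk4 interval within sgPrdm12 (0.064 to 0.73, not drawn) did not reach 1 either. The other same-guide intervals all spanned 1. The intervals leave out variation between libraries, and the share of all tested peaks with such an interval was not computed.

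In the authors' deposited table the log2 difference, sgPrdm12 minus sgNTC, was -1.32 at E2f2 with a standard error of 1.04. The authors' deposited table gives -0.34 (0.84) at Cdk4, and -0.23 (0.90) at Cdkn1b. It gives -0.016 (0.86) at Mcm5, -0.30 (1.31) at Ccne1, 0.62 (1.28) at Ccne2 and -0.30 (1.41) at Mki67 in the authors' deposited table. At 6 of the 7 genes the deposited standard error was larger than the size of the difference, E2f2 being the exception. The deposited difference was lower than the edgeR log2 fold change, or the log2 ratio of scaled means for the untested genes, at all 7. Its sign was the opposite at Cdk4, Mcm5 and Mki67, where the group means above are higher in sgPrdm12. The measures are unlike. The deposited value subtracts the authors' log2 means, whereas the group means above are arithmetic means of scaled counts. At Cdk4 and Mki67 those arithmetic means combine the highest and the lowest of the 4 libraries. The cause of the opposite signs was not tested.

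**Figure D4:**
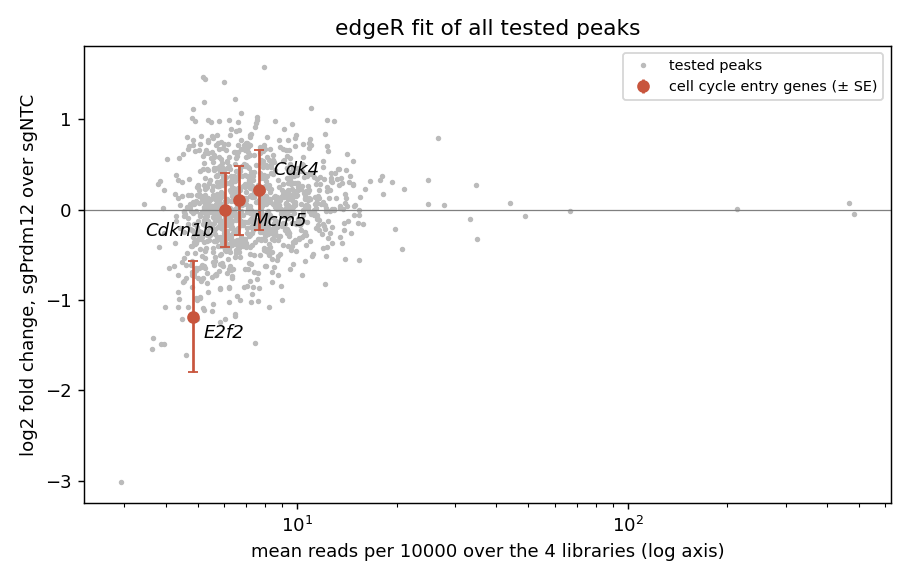
Log2 fold change of sgPrdm12 over sgNTC against the mean reads per 10000 over the 4 libraries (log axis) for the 1125 tested peaks in grey, with the 4 tested cell cycle entry peaks in red (± SE). Cdk4, Cdkn1b and Mcm5 lie near 0, and E2f2 lies at -1.18 within the spread of other peaks of similar height.

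For E2f2, Cdk4 and Mcm5, the peaks with the most similar 4 scaled counts were found by the Euclidean distance of log2 values over the 4 libraries, among tested peaks. Those nearest to E2f2 lay at Glb1l, Stil and Efcab11, at distances of 0.43, 0.44 and 0.50, and the peak at Glb1l held 11 and 22 reads in sgNTC and 4 and 6 in sgPrdm12. Nearest to Cdk4 were Setd1a, Ankhd1 and Prdm2 (0.39, 0.47 and 0.48), and nearest to Mcm5 were Zfp787, Eid1 and Ilvbl (0.14, 0.16 and 0.21). The likeness is over 4 libraries only.

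Other genes of the cell cycle were taken from a list of 81 genes that excludes the 7. Of these, 30 had a peak within 10000 bases, at 34 peaks in all, of which 14 were tested. None of the 14 passed edgeR's test in either direction, 0 higher and 0 lower (0.0% of all tested peaks were called), and 2 had an unadjusted p under 0.05. Their median log2 fold change was 0.08, with 8 above and 6 below 0, against 0.02 over all tested peaks. The 34 peaks together held 164 and 170 reads per 10000 in sgNTC and 178 and 174 in sgPrdm12. The 15 of them in the gene's own promoter window held 81.3 and 94.2 in sgNTC and 82.0 and 82.4 in sgPrdm12, where the groups overlapped.

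A peak lay in the promoter window of 15 of the 62 listed genes that have such a window (24.2%), against 1894 of 17491 protein-coding genes (10.8%). This is a description, since peaks at cell cycle genes were known when the list was made. The 15 genes span the stages of the cycle. They comprise Rbl1 (the retinoblastoma relative p107), Lin37, Lin52 and Rbbp4 (subunits of the DREAM complex that silences cell cycle genes), Cks1b and Cks2 (partners of CDKs), Orc4 and Orc6 (origin recognition), Cdt1 (licensing), Cdc7 (the kinase that fires origins), Cdc45 (a helicase cofactor), Top2a (topoisomerase), Aurka (a mitotic kinase), Ccnf (cyclin F) and Birc5 (survivin). The peaks of Orc4 and Cks1b lay nearer to an end of Mbd5 and of Shc1. The 8 tested peaks among the 15 ran from a log2 fold change of -0.50 ± 0.40 at Orc6 to 0.41 ± 0.37 at Cks2 (edgeR adjusted p 0.97 and 0.98).

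The other 15 genes had a peak elsewhere within 10000 bases or have no window in the table. They were Cdk2, Ccnh, Cdkn2c, E2f4, E2f5, E2f8, Fbxw7, Cdc25c, Wee1, Mcm4, Cdc6, Gmnn, Gins2, Gins4 and Plk1. The peaks of Cdk2, Cdkn2c, E2f5 and Cdc25c lay nearer to Rab5b, Faf1, Rbis and Fam53c. The 2 peaks with an unadjusted p under 0.05 were both higher in sgPrdm12, where 57 of all 1125 tested peaks (5.07%) had such a p, 34 of them higher and 23 lower. One lay inside the span of Wee1, a kinase that inhibits CDK1, with 20 and 36 reads in sgNTC, 28 and 20 in sgPrdm12 and a log2 fold change of 0.65 ± 0.30. The other lay 8034 bases from E2f4 and nearer to 4931428F04Rik, with 11 and 19 reads against 19 and 12 and a log2 fold change of 0.91 ± 0.37. The edgeR adjusted p was 0.93 for both.

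**Figure D5:**
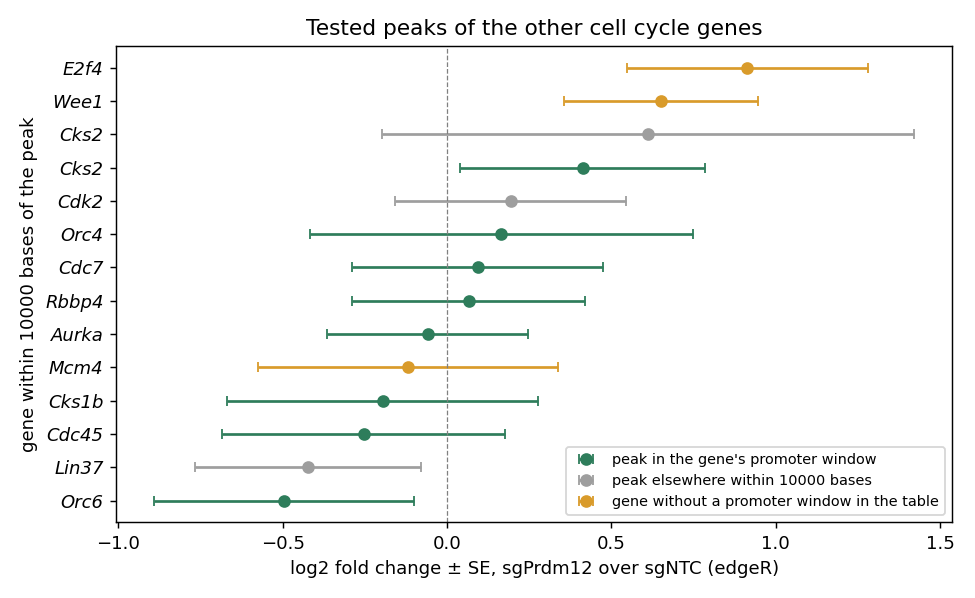
Log2 fold change ± SE (edgeR, sgPrdm12 over sgNTC) of the 14 tested peaks within 10000 bases of the other cell cycle genes, coloured by whether the peak lies in the gene's promoter window. The values run from -0.50 at Orc6 to 0.91 near E2f4, and none passed the adjusted threshold.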

How the data were processed

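ATAC-seq reads were counted by the authors in 1 set of peaks for 4 libraries; the deposited read_cnt columns are whole numbers, treated as unnormalised read counts. The authors' deposited log2 means and log2 difference, and its standard error (a deposited score column with no formula given), were only copied. Per the submitters' processing notes the build is GRCm38 and the tools include Bowtie2, cutadapt, MACS2, Picard, DiffBind, ChIPseeker and HOMER. Versions and settings, and whether Tn5 cut sites were shifted, duplicates removed or peaks called on pooled reads: not given in the sources used here. Totals of 20427 to 58068 reads in the listed peaks per library limit precision.

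All peaks were fitted with edgeR 4.0.16 (R 4.3.3): filterByExpr with a minimum count of 10, TMM scaling, robust quasi-likelihood fit, group as the only term, Benjamini-Hochberg adjustment at 0.05. SEs were taken as |log2 fold change| / √F. DESeq2 1.42.0 was an alternative. The replicate number is the batch in the labels, so it pairs the libraries; same-batch deviations from the group means correlated at r = 0.060 over 1125 peaks. Ratios use exact Clopper-Pearson 95% intervals. Likeness used log2 of (count + 0.5) after scaling. Gene spans and promoter windows are from RefSeq tables of GRCm38.p6; overlapping windows of opposite strands matched as reverse complements in 1716 of 1716 pairs. All 7 members are described; other list genes are named where they have a peak. Members and lists were chosen with earlier results of these data known. The peaks most like those of the other 4 members are not reported here.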

Additional observations from a re-analysis of the deposited data

How the results depend on the processing

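No member peak passed the adjusted threshold under any alternative run, and the count over all peaks stayed at 0 under DESeq2 size factors, no filter, DESeq2's Wald test and the replicate block (batch), whose fit gave E2f2 -1.17. Leaving out 1 library gave 0 to 1 peaks; the 1, at Rmnd1, appeared without sgPrdm12 replicate 1. In every fit without 1 library, the lone library of its group is assumed to vary like the 2 of the other group, so these counts do not measure stability. The unadjusted count was 57 of 1125 peaks in edgeR, 109 of 3186 without the filter and 28 of 3186 in DESeq2's Wald test. The log2 fold change of E2f2 stayed negative, from -1.67 to -0.66 over 9 alternatives. That of Cdk4 reversed once, to -1.21 without sgPrdm12 replicate 1, and without single libraries ran from -1.21 to 0.72. That of Cdkn1b reversed to 0.0057 under DESeq2's Wald test, to 0.12 without sgNTC replicate 2 and to 0.16 without sgPrdm12 replicate 2, and ran down to -0.36. That of Mcm5 reversed to -0.10 without sgPrdm12 replicate 2, and reached 0.34 without sgPrdm12 replicate 1. The cause was not tested. The summed level per 10000, sgPrdm12 minus sgNTC, was -0.42 and ranged from -8.00 to 7.16 without single libraries. The untested log2 ratio of scaled means also moved without single libraries: at Mki67 from 0.23 to between -1.52 (without sgPrdm12 replicate 1) and 1.00, at Ccne1 from -0.17 to between -0.51 and 0.27 (without sgNTC replicate 2), and at Ccne2 from 0.88 to between 0.14 and 1.67. These 3 were below the filter; without it their adjusted p was 0.89 to 0.93. With 23 to 26 reads each, only large changes were within reach there.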
